A study of Mus musculus with 4 samples.

Results

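The 9 genes described here encode transcription factors of the osteoblast lineage, namely *Runx2*, *Sp7*, *Dlx3*, *Dlx5*, *Dlx6*, *Msx1*, *Msx2*, *Atf4* and *Alx4*. They are named by their known function in osteoblasts, in a list drawn up with earlier results of these data known, and all 9 were found among the 23946 genes of the expression files. Bulk RNA-seq was performed on calvarial frontal and parietal bone of wild-type mice and of Twist1+/- mice, which carry 1 functional copy of *Twist1*, the gene of a basic helix-loop-helix factor. All mice were of the C57BL/6J background at postnatal day 21, the RNA came from 12 mice of each strain, with the frontal bone being of neural crest and the parietal bone of mesodermal origin. There were 4 deposited libraries, 1 for each genotype and bone, so that no value has a replicate error and no difference was tested. The study's methods speak of replicates, and whether a deposited value covers more than 1 of them was not given. Expression was given in FPKM, in which the fragments of a gene are divided by transcript length and by the mapped fragments of the library, a scale on which genes of different length can be compared.

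In the membranous bones of the skull, mesenchymal cells turn directly into osteoblasts, the cells that lay down bone matrix. *Runx2* is the master regulator of this step, and *Sp7* (osterix, *Osx*) acts downstream of it, so that mice lacking either gene form no bone. The homeobox genes of the *Dlx* and *Msx* families act around and upstream of *Runx2* in cranial mesenchyme, and *Alx4* patterns the same tissue. *Atf4* directs the amino acid supply and stress response of osteoblasts late in maturation, and its protein drives *Bglap* (osteocalcin). Twist1 protein restrains osteoblast differentiation by binding Runx2, and Twist1 binds DNA at E-boxes, written CANNTG.

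Windows of 250 bases that end at the gene start were read from the RefSeq promoter set of build GRCm38.p6, in which 4 of the 9 genes had an entry (*Runx2*, *Msx1*, *Msx2* and *Atf4*). *Sp7*, *Dlx3*, *Dlx5*, *Dlx6* and *Alx4* were not matched. The windows of *Runx2*, *Msx2* and *Atf4* are shown because they belong to the lineage regulator, to the member with the widest difference between libraries and to the member with the highest expression. They are given 5′ to 3′ on the strand of the gene, on the minus strand for *Runx2* (chr17:44814628-44814877) and *Msx2* (chr13:53472781-53473030) and on the plus strand for *Atf4* (chr15:80254934-80255183). Capitals mark every CANNTG and, in the *Runx2* window, also the Runx core motif ACCACA.
Runx2: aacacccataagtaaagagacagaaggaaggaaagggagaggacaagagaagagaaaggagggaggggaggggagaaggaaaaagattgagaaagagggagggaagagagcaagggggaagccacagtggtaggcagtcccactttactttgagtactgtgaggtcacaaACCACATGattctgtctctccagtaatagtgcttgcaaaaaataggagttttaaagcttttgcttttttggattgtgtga
Msx2: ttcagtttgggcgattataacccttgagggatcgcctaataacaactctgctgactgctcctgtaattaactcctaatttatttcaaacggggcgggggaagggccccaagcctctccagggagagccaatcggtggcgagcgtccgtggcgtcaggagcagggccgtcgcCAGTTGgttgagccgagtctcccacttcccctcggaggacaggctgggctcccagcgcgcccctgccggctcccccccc
Atf4: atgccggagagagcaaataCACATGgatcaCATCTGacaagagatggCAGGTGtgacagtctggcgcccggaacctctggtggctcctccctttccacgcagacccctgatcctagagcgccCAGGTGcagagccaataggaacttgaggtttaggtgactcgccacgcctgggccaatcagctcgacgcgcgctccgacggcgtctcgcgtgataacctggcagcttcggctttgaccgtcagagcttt

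CANNTG reads the same on both strands. It occurred 1 time in the windows of *Runx2*, *Msx1* and *Msx2* and 4 times in that of *Atf4*, whereas 66.2% of all 32851 windows held at least 1 match and 31.8% held 2 or more. ACCACA, searched on both strands, occurred in the *Runx2* window alone among the 4, beginning 80 bases before the start, and 14.0% of all windows held it. There it overlaps the E-box CACATG that begins 78 bases before the start. The homeodomain core TAATTA, also the same on both strands, was found in the *Msx2* window alone among the 4, where it begins 187 bases before the start, and in 4.84% of all windows. These matches are descriptions of the letters and no binding was measured here.

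The FPKM values were quantified on mouse build mm9, and the gene positions that follow are those of that build. *Runx2* lies on chromosome 17 from 44632936 to 44951746 and *Sp7* on chromosome 15 from 102187040 to 102197285, both on the reverse strand. *Dlx5* (chromosome 6, from 6827805 to 6832085, reverse strand) and *Dlx6* (from 6813334 to 6818568, forward strand) are neighbours with 9236 bases between them, and *Dlx3* lies apart on chromosome 11 from 94981403 to 94986610. *Msx1* lies on chromosome 5 from 38211724 to 38215822, *Msx2* on chromosome 13 from 53562250 to 53568443, *Alx4* on chromosome 2 from 93482541 to 93521496 and *Atf4* on chromosome 15 from 80085614 to 80087970. *Dlx6* shares 8 of 2142 windows of 75 bases with *Klhl32*, whereas the longest coding transcript of each other member shares none with another gene. An exon of *Gm10497* overlaps *Runx2* on the opposite strand, and the strand setting used in quantification was not given in the sources used here.

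*Twist1* expression was 59.0 FPKM in frontal and 52.5 in parietal bone of the wild type, and 30.4 in Twist1+/- frontal bone. In the library labelled Twist1+/- parietal it was 50.7 FPKM, close to wild-type parietal bone, so *Twist1* RNA itself does not set that library apart and directions for it are given by its label. *Fgf23*, the hormone gene that the study follows, was at 20.9 FPKM in wild-type parietal and 0.202 FPKM in labelled Twist1+/- parietal bone, so the parietal libraries differed widely in another gene. The osteoblast markers *Bglap*, *Ibsp*, *Alpl*, *Spp1*, *Phospho1* and *Ifitm5* were above 0 in all 4 libraries, whereas *Col1a1* and *Col1a2*, the chains of bone collagen, were listed at 0 in every library other than wild-type parietal, values that cannot be read as absence. Wild-type parietal bone stood apart from the other libraries, with the highest value for 35.5% and the lowest for 34.8% of 14760 genes that reached 1 FPKM in any library. Markers of other tissues differed between libraries too. The summed FPKM of 10 skeletal muscle genes ranged from 118 in wild-type frontal to 3643 in wild-type parietal bone, that of 10 brain and meninges genes from 118 in wild-type parietal to 2288 in wild-type frontal bone, and that of 10 nasal epithelium genes from 32.0 in wild-type parietal to 2740 in the library labelled Twist1+/- parietal. The part of these tissues in the results was not tested. The paper describes the parietal bones as made up of pericranium, bone plate and dura mater. The FPKM worth of 1 read was estimated from the commonest ratio among genes between 0.005 and 0.1 FPKM in both libraries. It was 1.27 times as high in Twist1+/- frontal as in wild-type frontal bone. Wild-type parietal against Twist1+/- frontal bone gave 1.31, and labelled Twist1+/- parietal against wild-type parietal bone gave 0.973. Between 17.5% and 18.3% of these genes lay near the commonest ratio. By this estimate the frontal libraries were the deeper ones, but their depth was not given.

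All 9 genes reached 1 FPKM in every library, and all except *Msx2* reached 10 FPKM. By level, *Atf4* and *Sp7* were the first and the second in every library and *Msx2* was the last. The genes between them lay closer together and changed places. *Dlx3* was in place 5 in the other 3 libraries but in place 8 in wild-type parietal bone, below *Alx4*. With 1 library for each condition, it cannot be said which neighbours in this order differ.

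*Runx2* expression was at 25.3 FPKM in frontal and 37.5 in parietal bone of the wild type, and at 28.4 in Twist1+/- frontal and 36.4 in labelled Twist1+/- parietal bone. Both parietal libraries were thus above both frontal libraries, and the genotypes lay close together within each bone. *Sp7* was at 86.7, 56.9, 83.4 and 108 FPKM in the same order of libraries. Here wild-type parietal bone was the low library, and the library labelled Twist1+/- parietal was the high one. Relative to *Runx2*, *Sp7* was 1.52 times as high in wild-type parietal bone against 3.42 times in wild-type frontal, 2.94 times in Twist1+/- frontal and 2.97 times in labelled Twist1+/- parietal bone. This ratio is formed within a library and does not depend on how the libraries are scaled, although it can move with the GC content of genes.

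**Figure D1:**
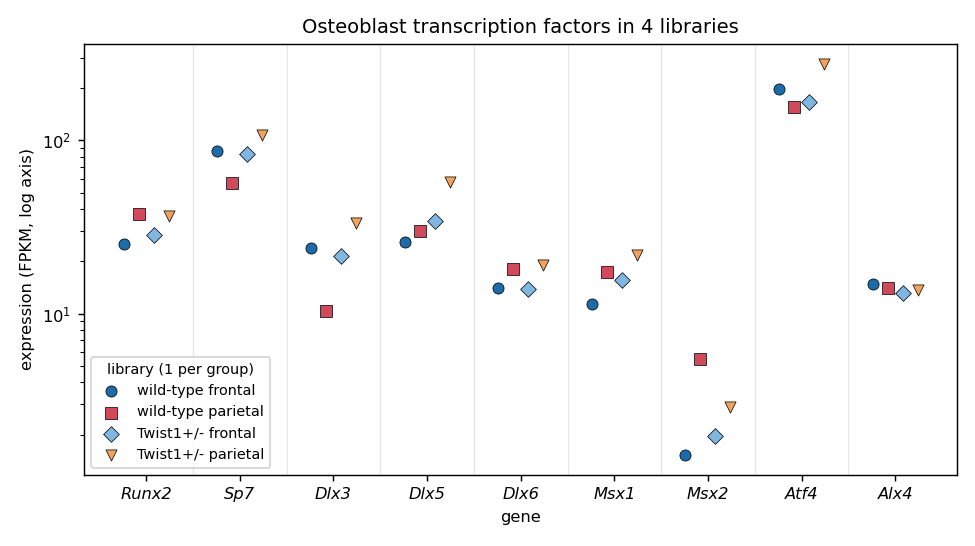
Expression of the 9 transcription factors (FPKM on a log axis) in the 4 libraries, with 1 point for each gene and library and no error bars because there is 1 library per group. *Dlx3* and *Sp7* have their lowest point in wild-type parietal bone (10.3 and 56.9 FPKM), *Msx2* has its highest there (5.44 FPKM), and the points of *Alx4* nearly coincide.

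Among the distal-less homeobox genes, *Dlx3*, which acts in osteoblasts, teeth and hair, was at 23.9 FPKM in frontal and 10.3 in parietal bone of the wild type, and at 21.5 in Twist1+/- frontal and 33.5 in labelled Twist1+/- parietal bone. Its wild-type parietal value was the lowest by a wide margin, and the log2 range of 1.71 over the 4 libraries narrowed to 0.64 without that library. *Dlx5*, an activator of *Runx2* and *Sp7* in response to BMP, was at 25.8, 29.8, 34.4 and 57.4 FPKM in the same order. It was highest in the library labelled Twist1+/- parietal, and its range of 1.15 did not depend on wild-type parietal bone. *Dlx6*, which is expressed together with *Dlx5* in the developing skull, was at 14.0, 18.2, 13.8 and 19.0 FPKM, higher in both parietal than in both frontal libraries. *Dlx5* was 1.84 times as high as *Dlx6* in frontal and 1.63 times in parietal bone of the wild type, 2.49 times in Twist1+/- frontal and 3.03 times in labelled Twist1+/- parietal bone, so the neighbouring genes were not in a constant ratio.

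*Msx1*, a homeobox gene of cranial and tooth mesenchyme, was at 11.4 FPKM in frontal and 17.4 in parietal bone of the wild type, and at 15.7 in Twist1+/- frontal and 21.9 in labelled Twist1+/- parietal bone. The parietal value was the higher one within each genotype, and the Twist1+/- value was the higher one within each bone. *Msx2*, its relative, in which gain of function causes craniosynostosis and loss of function causes skull foramina, was at 1.52, 5.44, 1.97 and 2.90 FPKM. Wild-type parietal bone was highest, and without it the log2 range fell from 1.84 to 0.93. *Msx1* exceeded *Msx2* 3.20 times in wild-type parietal bone, but 7.52 times in wild-type frontal, 7.97 times in Twist1+/- frontal and 7.57 times in labelled Twist1+/- parietal bone. This pair has the widest gap in GC content among the members (58.2% and 48.5%). The log2 difference of its ratio between the parietal bones was 1.24, and it was 0.36 with the median of genes of similar GC content subtracted. *Alx4*, an aristaless-type homeobox gene whose loss also leaves openings in the skull vault, was the steadiest member at 14.8, 14.0, 13.2 and 13.6 FPKM, a 1.12-fold range. *Atf4* was at 197, 155, 167 and 278 FPKM, highest in the library labelled Twist1+/- parietal and lowest in wild-type parietal bone.

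**Figure D2:**
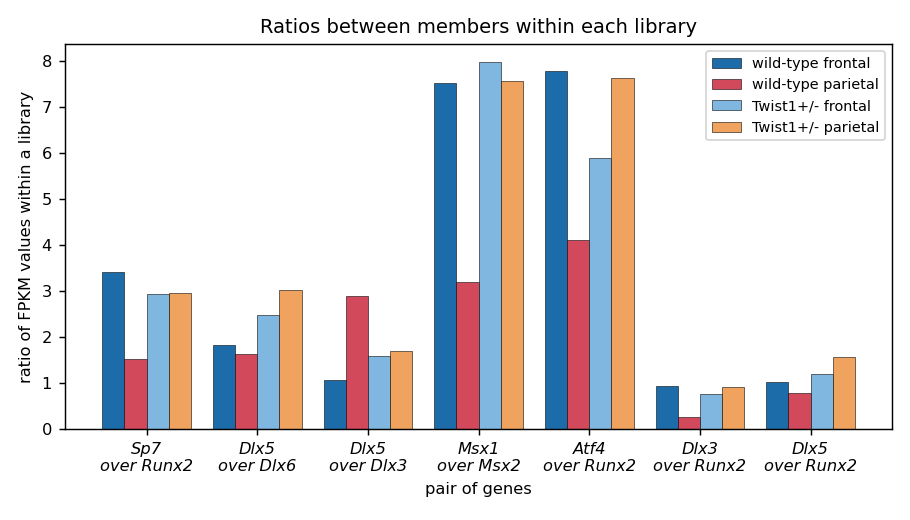
Ratios between the FPKM values of pairs of members, formed within each library (vertical axis, no unit), with 1 bar for each library. Wild-type parietal bone has the lowest bar for *Sp7* over *Runx2* (1.52), *Msx1* over *Msx2* (3.20), *Atf4* over *Runx2* (4.12) and *Dlx3* over *Runx2* (0.274), and the highest for *Dlx5* over *Dlx3* (2.90).

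The 2 libraries of parietal bone, the bone of mesodermal origin, were compared by their labels. *Twist1* was at 50.7 FPKM in labelled Twist1+/- and 52.5 FPKM in wild-type parietal bone. A link of differences between these libraries to *Twist1* dosage was not tested. *Dlx3* was the only member past 3-fold with at least 1 FPKM in the higher library, at 3.26-fold higher in the library labelled Twist1+/- parietal (log2 ratio 1.71). This is 1 of 9 members, and 8.19% of the 13914 genes tested were past 3-fold. It was also the only one past 2-fold, a limit passed by 20.2% of genes. *Dlx5* (1.93-fold, log2 ratio 0.95), *Sp7* (1.90-fold, 0.93) and *Atf4* (1.80-fold, 0.85) were above wild-type by less than 2-fold. *Msx2* was lower, with a log2 ratio of -0.91, and *Msx1* was at 0.33. *Dlx6* (0.06), *Runx2* (-0.04) and *Alx4* (-0.04) were nearly level. The median log2 ratio of the members was 0.33, and that of the 13800 genes with a ratio (above 0 in both libraries) was -0.06, with the central 80 percent of genes between -0.96 and 1.03.

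The parietal ratio moved with the GC content of genes, with a Spearman rho of 0.546 across 12554 genes, which share the same libraries and are not replicates. The median log2 ratio went from -0.59 in the lowest to 0.70 in the highest of 20 GC groups. The members had a median GC content of 54.4% against 50.7% for all genes, and 6 of 9 were above that value. With the median of genes of similar GC content subtracted, *Dlx3* stayed above wild-type but dropped below 3-fold (log2 ratio 1.25). *Sp7*, *Dlx5* and *Atf4* also stayed above, at 0.72, 0.71 and 0.64, and *Msx2* stayed below at -0.58. *Msx1*, at 58.2% GC the richest member, changed sign from 0.33 to -0.22, and *Runx2* went to 0.12. Among pairs, the log2 difference between the parietal bones went from 0.97 to 0.60 for *Sp7* over *Runx2*, from 0.89 to 0.47 for *Dlx5* over *Dlx6* and from 1.75 to 1.13 for *Dlx3* over *Runx2*. The part of GC content in these differences was not tested beyond this subtraction.

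**Figure D3:**
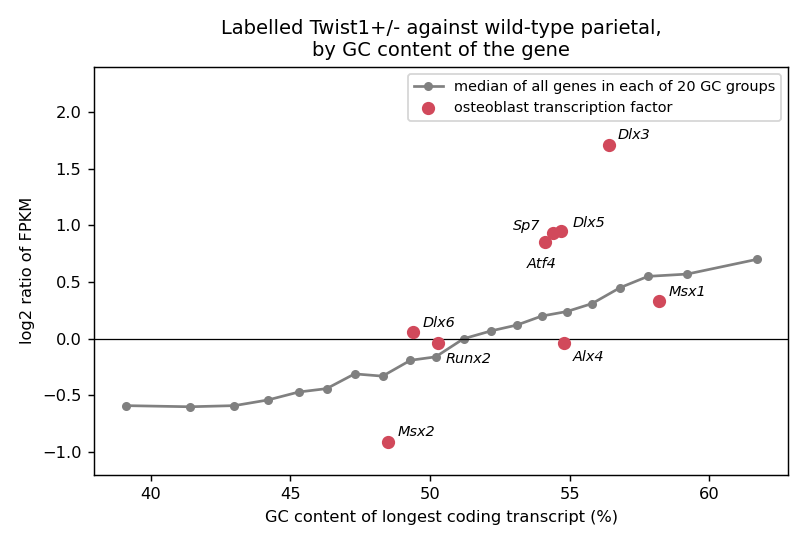
Log2 ratio of FPKM in labelled Twist1+/- to wild-type parietal bone (vertical axis) against the GC content of the longest coding transcript (horizontal axis, percent), with the medians of 20 groups of all genes as a grey line and the 9 members as red points. *Dlx3*, *Sp7*, *Dlx5* and *Atf4* lie above the line, *Msx2*, *Msx1* and *Alx4* lie below it, and *Runx2* and *Dlx6* lie slightly above it.

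Between Twist1+/- and wild-type frontal bone, where *Twist1* was lower in the Twist1+/- library with a log2 ratio of -0.96, no member was past 3-fold or 2-fold. Of the 14341 genes tested, 3.89% were past 3-fold and 7.18% past 2-fold. *Msx1* (log2 ratio 0.45), *Dlx5* (0.41) and *Msx2* (0.37) were the members farthest above wild-type, followed by *Runx2* (0.16). *Atf4* (-0.24), *Alx4* (-0.17) and *Dlx3* (-0.15) were below it, and *Sp7* (-0.06) and *Dlx6* (-0.02) were nearly level. The members' median was -0.02 and that of all genes -0.04, with the central 80 percent of genes between -0.47 and 0.46, so each member lay inside that range. The GC trend was weaker here, with a rho of 0.110.

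When the wild-type bones were compared, *Msx2* was 3.58-fold higher in parietal bone (log2 ratio 1.84) and was the only member past 3-fold, a limit passed by 13.3% of the 14214 genes tested. *Dlx3* was lower in parietal bone by more than 2-fold (log2 ratio -1.22). That made 2 of 9 members past 2-fold against 26.9% of genes. *Msx1* (0.61), *Runx2* (0.57), *Dlx6* (0.38) and *Dlx5* (0.21) were higher in parietal bone, *Sp7* (-0.61) and *Atf4* (-0.35) were lower, and *Alx4* was at -0.08. The members' median was 0.21 against -0.01 for all genes, and it changed sign to -0.24 when the libraries were scaled to the same *Gapdh* value, because *Gapdh* itself was at 215 FPKM in wild-type parietal and 158 in wild-type frontal bone. With that scaling *Dlx3* passed 3-fold (log2 ratio -1.66) and *Msx2* did not (1.39), and *Dlx5* and *Dlx6* were below frontal bone at -0.24 and -0.07. *Msx2* also fell short of 3-fold, at 1.35, after 1 FPKM was added to each value.

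Between labelled Twist1+/- parietal and Twist1+/- frontal bone, every member had the higher value in the parietal library, with log2 ratios from 0.05 for *Alx4* to 0.74 for *Dlx5*. *Atf4* was at 0.73, *Dlx3* at 0.64, *Msx2* at 0.56, *Msx1* at 0.49, *Dlx6* at 0.46, *Sp7* at 0.37 and *Runx2* at 0.36. None was past 3-fold or 2-fold, limits passed by 4.09% and 11.9% of 14305 genes. The members' median was 0.49 and that of all genes -0.03, and 47.6% of all genes were higher in the parietal library. The shift was not particular to the members. Of the gene lists described below, the matrix and mineral genes had a median of 0.59 here and the osteocyte genes 0.76. The other regulators of osteoblast transcription were at 0.32, the Runx relatives and partners at 0.05 and the *Dlx*, *Msx* and *Alx* relatives at -1.25. With the GC trend subtracted (rho 0.416 in this comparison) 8 of 9 members were higher, and *Alx4* was at -0.13. *Twist1* was at 0.74 here, although both libraries carry the Twist1+/- label. The 4 comparisons share libraries, so their values for a gene are not independent of each other.

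**Figure D4:**
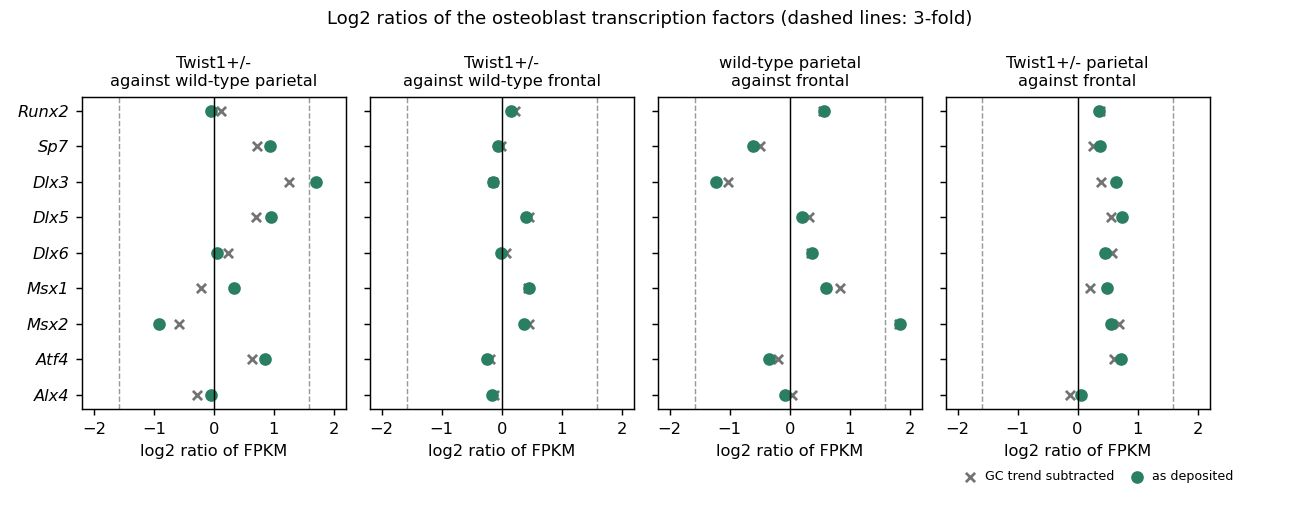
Log2 ratios of FPKM for the 9 members in the 4 comparisons (horizontal axes, dashed lines at 3-fold), with the deposited values as filled circles and the values after subtraction of the GC trend as crosses. *Dlx3* in the parietal comparison (1.71) and *Msx2* in the wild-type comparison (1.84) are the only circles beyond a dashed line, and all circles of the last panel lie above 0.

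In bulk bone, fewer osteoblasts and less RNA per osteoblast cannot be told apart, and several members are also expressed outside bone. *Dlx5* and *Dlx6*, like *Dlx1* and *Dlx2*, are known from GABAergic neurons. Of 8 genes of such neurons, 6 were lowest in wild-type parietal bone and 6 were highest in wild-type frontal bone, among them *Gad1* at 0.383 and 31.7 FPKM. The medians of the 8 were 7.30 FPKM in frontal and 0.279 in parietal bone of the wild type, and 4.31 in Twist1+/- frontal and 2.32 in labelled Twist1+/- parietal bone. The exceptions were *Pvalb*, which muscle also expresses and which was highest in wild-type parietal bone (152 FPKM, against 12.9 in wild-type frontal), and *Vip*, which was lowest in labelled Twist1+/- parietal bone (0.146 FPKM). With *Pvalb* included, the summed FPKM was 103, 159, 78.8 and 133 in the order of the medians. *Dlx1* and *Dlx2* were also lower in wild-type parietal (0.301 and 0.223 FPKM) than in wild-type frontal bone (7.47 and 2.04 FPKM), with log2 ratios of -4.63 and -3.20. *Dlx5* was lowest in wild-type frontal and *Dlx6* in Twist1+/- frontal bone. The part of neurons in these values was not tested. *Dlx6os1*, an RNA on the strand opposite to *Dlx6*, was at 5.13 FPKM in frontal and 2.45 in parietal bone of the wild type, and at 4.90 in Twist1+/- frontal and 1.73 in labelled Twist1+/- parietal bone, lower in both parietal libraries, in which *Dlx6* was higher.

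Tooth tissue and keratinocytes express *Dlx3* and *Msx* genes as well. The enamel and dentin genes *Amelx* and *Dspp* were at 10.8 and 0.0771 FPKM in wild-type frontal bone, at 0.0760 and listed at 0 in wild-type parietal, at 39.6 and 37.6 in Twist1+/- frontal and at 101 and 3.14 in labelled Twist1+/- parietal bone. The summed FPKM of 8 tooth genes was 23.1, 4.86, 104 and 128 in the same order. This sum was lowest in the library in which *Dlx3* was lowest and highest where *Dlx3* was highest. Most of the highest sum was *Amelx* (101 FPKM). The medians of the 8 genes were 0.108, 0.0448, 3.27 and 1.88 FPKM, highest in Twist1+/- frontal bone. In the frontal bones, however, the tooth sum was higher in the Twist1+/- library, with *Dlx3* at 21.5 FPKM against 23.9 in wild-type. The sum of 10 keratinocyte and hair genes was 2.89, 3.05, 5.07 and 9.25 FPKM. The part of these tissues in the *Dlx3* values was not tested.

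Other genes of the same pathways were taken from lists drawn up by function, and the GC trend was not subtracted from their ratios or calls. The share of all genes past 3-fold, for comparison, was 8.19% between the parietal bones, 3.89% between the frontal bones, 13.3% between the wild-type bones and 4.09% between the Twist1+/- bones. Of 19 genes of Runx relatives and partners, 1 was past 3-fold between the parietal bones, *Cebpb*, a leucine zipper factor that cooperates with Runx2, at 31.1 FPKM in wild-type and 102 FPKM in labelled Twist1+/- parietal bone (log2 ratio 1.71). The list median was 0.04. *Cbfb*, the gene of a partner protein of Runx2, was not past 3-fold, at 93.5 FPKM in wild-type and 53.2 FPKM in labelled Twist1+/- parietal bone. None of the 19 was past 3-fold in the other 3 comparisons. Among the 8 *Dlx*, *Msx* and *Alx* relatives present in the files, *Dlx1* and *Dlx2* were higher (log2 ratios 3.28 and 3.01) and *Alx1* was lower (-1.95) between the parietal bones, with 5 of 8 at or above 1 FPKM. *Alx1* was at 6.33 FPKM in wild-type and 1.64 FPKM in labelled Twist1+/- parietal bone, whereas its relative *Alx4* was level. Between the wild-type bones 3 of 7 were past 3-fold, all lower in parietal bone, namely *Dlx1*, *Dlx2* and *Dlx1as*, an antisense RNA at *Dlx1* (-5.29, at 1.76 and 0.0451 FPKM). *Alx1* was also the only relative past 3-fold between the Twist1+/- bones (-1.86), and none was past it between the frontal bones.

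Of 33 other regulators of osteoblast transcription, 32 reached 1 FPKM in the parietal bones and 0 were past 3-fold there, with a median log2 ratio of 0.28. Between the frontal bones *Sox11*, a factor of progenitor cells, was past 3-fold, at 2.09 FPKM in wild-type and 6.96 FPKM in Twist1+/- bone (log2 ratio 1.74). Between the wild-type bones *Twist2*, the closest relative of *Twist1*, was past 3-fold, at 0.802 FPKM in frontal and 2.60 FPKM in parietal bone (1.69).

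Of 20 matrix and mineral genes of the osteoblast, 18 were above 0 in both parietal libraries, and 1 of these was past 3-fold higher and 1 lower in labelled Twist1+/- than in wild-type parietal bone. The higher one was *Phospho1*, a phosphatase that starts mineral formation in matrix vesicles, at 63.3 FPKM in wild-type and 242 in labelled Twist1+/- parietal bone (log2 ratio 1.93). The lower one was *Enpp1*, which makes the mineralization inhibitor pyrophosphate (-1.96). *Col1a1* and *Col1a2* were left out of these counts because of their values at 0. Between the wild-type bones 4 of the 18 were past 3-fold, all higher in parietal bone, namely *Mmp13* (2.28), *Ostn* (2.09), *Enpp1* (1.70) and *Ibsp* (1.65). The median of the 18 was 0.32. *Alpl* was level, *Bglap*, *Bglap2*, *Sparc*, *Phospho1* and *Bmp7* were lower in parietal bone, and the rest were higher. *Ibsp* and *Mmp13* are known targets of Runx2, and *Runx2* was at 0.57 in that comparison. A link of the values of this list to *Runx2* was not tested. No gene of the list was past 3-fold between the frontal bones, and *Ostn* (1.63) was the only one past it between the Twist1+/- bones.

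*Atf4* expression was set beside 24 genes that its protein is known to activate under amino acid or endoplasmic reticulum stress. The GC trend was not subtracted from the medians of these genes, and a link of their values to *Atf4* was not tested. Between the parietal bones, where *Atf4* had a log2 ratio of 0.85, 22 of them reached 1 FPKM and their median was 0.52, against -0.06 for all genes. *Atf5* alone was past 3-fold, at 39.8 FPKM in wild-type and 125 FPKM in labelled Twist1+/- parietal bone (1.65). Between the frontal bones *Atf4* was at -0.24 and the median of 23 targets at -0.25, with 0 past 3-fold. Between the wild-type bones *Atf4* was at -0.35 and the targets at -0.54, and *Slc7a11* (-3.09) and *Slc7a5* (-1.60), both amino acid transporter subunits, were past 3-fold. Between the Twist1+/- bones *Atf4* was at 0.73, the median of the targets was at 0.17 and 0 were past 3-fold. None of 6 kinases and other regulators upstream of Atf4 protein was past 3-fold in any comparison. Much of the control of Atf4 lies in its translation, which RNA-seq does not measure.

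**Figure D5:**
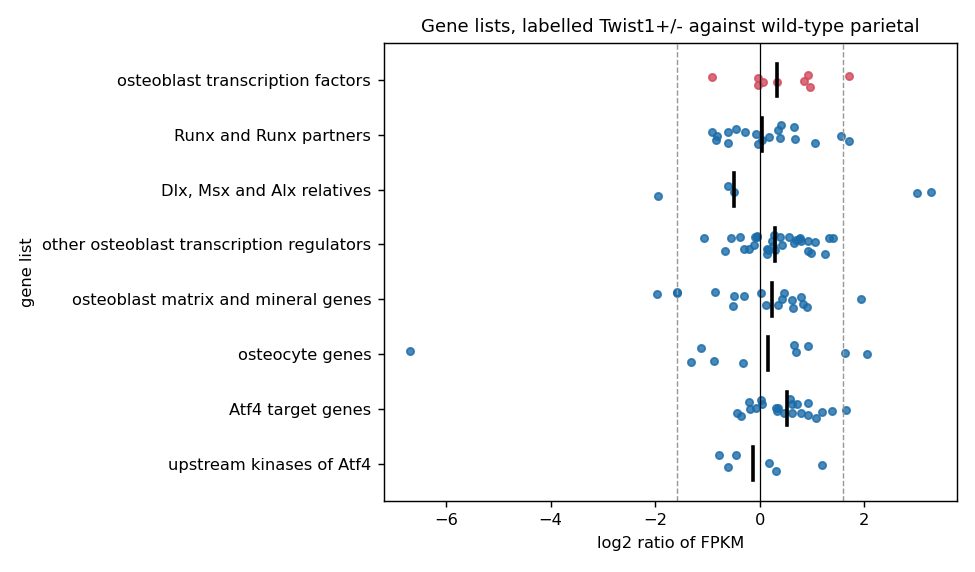
Log2 ratios of FPKM in labelled Twist1+/- to wild-type parietal bone (horizontal axis, dashed lines at 3-fold) for the 9 members and for the genes of each list with 1 FPKM or more in either library and a value at 0 in neither, with 1 point per gene, a bar at the median and vertical scatter for legibility only. The medians were 0.33 for the members and 0.52 for the Atf4 targets, and the point farthest to the left is *Fgf23* at -6.69.

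To find genes of similar pattern, each gene was described by its log2 FPKM in the 4 libraries less their mean, and the distance of a pair of genes was the root mean square of the differences. Over 4 libraries many genes resemble any given one, so the number of genes at least as near among 12290 is given for each nearest member. *Runx2* and *Dlx6* were each other's nearest member, at a distance of 0.078, with 156 genes as near to *Runx2*. *Sp7* and *Atf4* were likewise each other's nearest member (0.170), with 773 genes as near to *Sp7*. In the other direction 187 genes were as near to *Dlx6* and 519 to *Atf4*. The nearest member to *Dlx3* was *Sp7* (0.291, with 353 genes as near), that to *Dlx5* was *Msx1* (0.221, with 393), that to *Msx1* was *Runx2* (0.173, with 450) and that to *Alx4* was *Dlx6* (0.226, with 3686). *Msx2* was far from all members, its nearest being *Runx2* at 0.484, with 2324 genes as near.

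Among the genes of the lists, the nearest was *Prrx1*, a factor of skeletal progenitors, for *Runx2* (0.073, with 125 genes as near), *Shmt2* for *Sp7* (0.069, with 82), *Phospho1* for *Dlx3* (0.127, with 22 genes as near) and *Spp1*, which encodes osteopontin, for *Msx2* (0.102, with 28 as near). For *Atf4* it was *Bglap* (0.103, with 94 as near), which has near-identical copies between which reads may have been split, for *Dlx5* *Junb* (0.128, with 52), for *Dlx6* *Yap1* (0.063, with 91), for *Msx1* *Jun* (0.060, with 17) and for *Alx4* *Hdac6* (0.035, with 33). Among all genes, *Oaz2* (0.013), *Plekhg5* (0.018) and *Bnip1* (0.022) were nearest to *Runx2*, and *Fam134a* (0.009), *Bmp1* (0.010) and *Sh3bp5l* (0.023) to *Sp7*.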

How the data were processed

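Poly(A) RNA was captured from total RNA of both bones, and a stranded kit was used for the libraries, which gave single-end reads (75 bases). Per the labels and methods, the authors aligned reads to mm9 with STAR 2.4.2a and quantified genes with Cuffdiff (Cufflinks 2.2.1). Each gene has 1 deposited FPKM value in each library. The library scaling option and the depth of each library were not given in the sources used here, and no interval or floor was computed.

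Groups came from the sample labels. A gene counted as tested, for the size of its ratio alone, when it reached 1 FPKM in either library, and called past 3-fold by the plain ratio. A value at 0 counted as past when the other reached 1 FPKM. GC content came from GENCODE M1 of mm9, found for at least 90.5% of genes tested in each comparison, and for all 9 members. The median log2 ratio of 20 GC groups was subtracted as an alternative, beside 0.1 or 1 FPKM added, scaling by *Gapdh* or by the median ratio, a 2-fold limit and a floor of 10 FPKM. Members and lists were chosen with earlier results of these data known. All members were named. List genes were named when past 3-fold (at most 4 per list and comparison), *Col1a1* and *Col1a2* were kept out of the list counts for their values at 0, and *Cbfb*, *Fgf23* beside *Twist1*, markers and *Dlx6os1* were named after their values were seen. The code of the call rule was tested on simulated data, which bears on the code and not on replicate error. Python 3.11.15, pandas 2.3.3 and scipy 1.17.1 were used.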

Additional observations from a re-analysis of the deposited data

Results flagged for a closer look

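In 6 of the 9 members the Twist1+/- value lay on opposite sides of wild-type in the parietal and the frontal bone. Of 14542 genes above 0 in all libraries and at or above 1 FPKM in any, 46.0% had such opposite signs. *Dlx3* had a log2 ratio of 1.71 in parietal and -0.15 in frontal bone, *Sp7* had 0.93 and -0.06, and *Atf4* had 0.85 and -0.24. *Msx2* went the other way, with -0.91 in parietal and 0.37 in frontal bone. *Runx2* (-0.04 and 0.16) and *Dlx6* (0.06 and -0.02) had ratios close to 0, and scaling to the same median ratio gave 0.03 for *Runx2* in parietal and 0.02 for *Dlx6* in frontal bone. With 1 library for each group these differences were not tested. Wild-type parietal bone, which enters every parietal ratio, was the lowest library for *Dlx3*, *Sp7* and *Atf4* and the highest for *Msx2*. Of 14760 genes that reached 1 FPKM in any library, 34.8% were lowest and 35.5% were highest there. *Twist1* itself was at 50.7 FPKM in labelled Twist1+/- and 52.5 FPKM in wild-type parietal bone.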

How the results depend on the processing

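There were no deposited replicates to leave out. A median was taken to move when it shifted by at least 0.1 on the log2 scale. Of 36 single log2 ratios (9 members in 4 comparisons), 35 kept their sign and their side of 3-fold with 1 FPKM added, 36 with 0.1 FPKM added, 33 with scaling to the same median ratio, 30 with scaling to the same *Gapdh* value and 30 with the GC trend subtracted. No ratio past 3-fold changed sign. The count of members past 3-fold went from 1 to 0 between the parietal bones when the GC trend was subtracted. Between the wild-type bones it went from 1 to 0 with 1 FPKM added or with a floor of 10 FPKM, and to 2 with a 2-fold limit. *Gapdh* scaling moved the members' median to 0.72 between the parietal bones, to -0.12 between the frontal bones and to -0.24 between the wild-type bones. It shifts all genes by 0.39, -0.10 and -0.44 in these comparisons. Subtraction of the GC trend moved the median to 0.32 between the wild-type bones and to 0.39 between the Twist1+/- bones. The other counts and medians stayed within these limits.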

Other observations

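Of 10 osteocyte genes, *Sost* and *Hyou1* were past 3-fold higher in labelled Twist1+/- than in wild-type parietal bone (log2 ratios 2.04 and 1.63). *Sost* encodes an inhibitor of Wnt signalling. *Fgf23*, a phosphate-regulating hormone, was lower (-6.69). That made 3 of 10 past 3-fold against 8.19% of all genes. The list was drawn up with earlier results of these data known and holds *Fgf23*, which the study follows, so this count is no test of osteocyte genes. Between the wild-type bones *Fgf23* was higher (5.31) and *Hyou1* lower (-1.98) in parietal bone, and between the Twist1+/- bones *Fgf23* was lower in parietal bone (-2.31). *Sost*, a known target of Sp7, was at 26.7 FPKM in frontal and 18.3 in parietal bone of the wild type, and at 45.5 in Twist1+/- frontal and 75.1 in labelled Twist1+/- parietal bone, so its lowest and its highest library were those of *Sp7*, an order of lowest and highest that 10.2% of 14760 genes had. Markers of osteoclasts, the cells that resorb bone, had a summed FPKM of 2614, 9181, 3259 and 6717 in the same order, higher in both parietal than in both frontal libraries. The medians of 8 chondrocyte genes were 2.58, 7.60, 1.32 and 2.05 FPKM, and 6 of the 8 were highest in wild-type parietal bone. Their sum was 350, 125, 248 and 331 FPKM, most of it *Col11a2* (337, 79.9, 236 and 305 FPKM), which was lowest there. The sum of 8 neutrophil genes was 14885, 7294, 16550 and 9432 FPKM.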
